A study of Mus musculus with 45 samples.

Results

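The 5 Rel-homology subunits of NF-kB (Nfkb1, Nfkb2, Rel, Rela and Relb) and 5 genes grouped here as inhibitors (Nfkbia, Nfkbib, Nfkbie, Nfkbiz and Tnfaip3) were followed through 45 macrophage RNA-seq libraries. Of these, Nfkbiz is also a coactivator of some genes. The 10 genes were matched by symbol and Ensembl identifier, and all 10 were among the 29307 genes of the count table and the 11900 genes of the CPM table. Bone marrow-derived macrophages came from C57BL/6N mice of 6 to 10 weeks that had been engineered to carry human variants of FAMIN (Lacc1), a purine nucleoside enzyme. Every group was such a line, and no group of unmodified mice was included. Faminp.254I (254I below) is the non-risk form, Faminp.254V (254V) the risk form and Faminp.284R (284R) the form found in monogenic disease. The paper states that the 254V form is the one expressed by C57BL/6 mice. Cells from 5 mice of each genotype were grown for 6 days with M-CSF and then kept for 24 h as M0 (no polarizing cytokine), M1 (IFN-γ at 50 ng/mL with LPS at 20 ng/mL) or M2 (IL-4 at 20 ng/mL), which gave 9 groups of 5 libraries.

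NF-kB is a family of dimeric transcription factors that stay in the cytoplasm of resting macrophages, bound by IkB proteins. Toll-like and cytokine receptors activate the IKK kinases, which mark IkB proteins for degradation, and the freed dimers then induce inflammatory genes together with several of their own inhibitors. In a second, non-canonical branch the p100 precursor made from Nfkb2 is processed to p52, the partner of RelB.

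Because several of these genes are themselves known NF-kB targets, their promoters were searched for the 10-base kappaB consensus on both strands, in windows from 250 bases before to 50 bases after a transcription start (RefSeq, GRCm38.p6). The table held 10 windows for 7 of the genes (Nfkb2, Rel, Rela, Nfkbia, Nfkbib, Nfkbie and Tnfaip3), and 7 of these 10 windows had a match, against 8.46% of all 32851 promoters in it. Matches on opposite strands, or shifted by a base, can overlap at 1 position, and the 2 downstream Nfkb2 windows overlap and share a match. The windows below were chosen after the 284R result was seen. They are 1 window each of the 4 genes with kappaB matches that were called higher in 284R M1 libraries in a comparison given below. Those calls rested on 284R replicates 3, 4 and 5, and were lost when any 1 of these was left out. Rel and Rela, which were not called, are shown for comparison. Nfkbib, which rose in M1 in every mouse, and the downstream Nfkb2 and Tnfaip3 windows are left out of the display. Each window shown reads 5′ to 3′ on the strand of the gene, and capitals mark the consensus matches.
Nfkb2 (chr19:46304487-46304786, plus strand): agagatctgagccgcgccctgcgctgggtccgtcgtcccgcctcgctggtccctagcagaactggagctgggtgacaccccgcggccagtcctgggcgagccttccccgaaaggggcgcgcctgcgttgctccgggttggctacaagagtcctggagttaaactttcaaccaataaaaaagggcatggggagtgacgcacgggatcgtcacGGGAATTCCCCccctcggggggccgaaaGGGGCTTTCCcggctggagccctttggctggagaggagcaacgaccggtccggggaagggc
Nfkbia (chr12:55492598-55492897, minus strand): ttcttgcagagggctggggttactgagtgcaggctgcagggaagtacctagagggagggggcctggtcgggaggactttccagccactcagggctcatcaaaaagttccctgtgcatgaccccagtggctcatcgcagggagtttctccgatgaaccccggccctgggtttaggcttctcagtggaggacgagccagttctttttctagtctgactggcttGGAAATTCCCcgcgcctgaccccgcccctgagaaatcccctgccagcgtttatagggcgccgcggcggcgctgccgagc
Nfkbie (chr17:45555450-45555749, plus strand): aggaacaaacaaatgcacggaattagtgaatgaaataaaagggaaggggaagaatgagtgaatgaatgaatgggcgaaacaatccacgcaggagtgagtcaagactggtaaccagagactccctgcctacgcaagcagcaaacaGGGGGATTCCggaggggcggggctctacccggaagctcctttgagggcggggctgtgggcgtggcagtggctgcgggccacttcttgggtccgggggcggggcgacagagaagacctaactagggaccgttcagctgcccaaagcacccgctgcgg
Tnfaip3 (chr10:19015361-19015660, minus strand): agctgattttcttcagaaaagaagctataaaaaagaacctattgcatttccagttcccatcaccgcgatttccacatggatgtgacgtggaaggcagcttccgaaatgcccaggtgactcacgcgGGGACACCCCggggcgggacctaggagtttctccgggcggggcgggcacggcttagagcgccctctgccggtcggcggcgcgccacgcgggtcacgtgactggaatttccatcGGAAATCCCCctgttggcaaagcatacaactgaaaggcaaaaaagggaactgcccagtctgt
Rel (chr11:23770920-23771219, minus strand): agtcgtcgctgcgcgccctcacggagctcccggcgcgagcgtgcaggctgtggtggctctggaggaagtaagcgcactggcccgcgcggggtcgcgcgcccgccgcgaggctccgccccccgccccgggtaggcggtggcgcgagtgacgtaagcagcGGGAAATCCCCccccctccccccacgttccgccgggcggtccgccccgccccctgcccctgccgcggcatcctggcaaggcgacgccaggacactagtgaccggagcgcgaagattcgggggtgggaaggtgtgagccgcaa
Rela (chr19:5637291-5637590, plus strand): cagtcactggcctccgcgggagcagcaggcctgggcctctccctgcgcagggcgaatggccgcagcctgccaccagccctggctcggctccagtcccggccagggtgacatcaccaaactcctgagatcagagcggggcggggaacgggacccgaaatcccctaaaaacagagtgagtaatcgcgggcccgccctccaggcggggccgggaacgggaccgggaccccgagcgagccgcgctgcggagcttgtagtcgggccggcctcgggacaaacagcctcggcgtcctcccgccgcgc
The Rel window held a match. The Rela and Nfkbib windows held none, nor did a second, downstream Tnfaip3 window (chr10:19011914-19012213). A link between matches and RNA levels was not tested. A match describes the letters only, and binding was not measured here.

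Libraries held 17239009 to 43740283 counts (median 27553642). The M1 markers summed to 10400 to 15000 CPM in M1 and to at most 254 CPM elsewhere, and the 7 macrophage markers to at least 9580 CPM in every library. Nos2 and Cxcl9 had medians under 1 CPM in M0 and M2. Some markers of other cell types moved with polarization. The 8 neutrophil markers summed to medians of 74.7, 60.3 and 31.1 CPM in M0, M1 and M2, with up to 284 CPM in 284R M0 replicate 2, although Ly6g, Mpo, Elane and Retnlg had medians under 1 CPM. The 6 T cell markers summed to 20.9 to 47.0 CPM in M0, 7.82 to 13.5 CPM in M1 and 2.96 to 6.79 CPM in M2, with Cd3e, Cd3d, Cd3g, Cd8a and Lck under 1 CPM in median. The 4 NK cell markers summed to 123 to 175 CPM in M1 and to at most 1.07 CPM elsewhere, and in M1 all but Klrk1 had medians under 1 CPM. Their part in the results was not tested. A few libraries stood apart from their groups. Ccl5, a chemokine induced by interferon and LPS, reached 563 CPM in 254I M0 replicate 4 and 288 CPM in 254I M2 replicate 4, while the other M0 and M2 libraries lay between 3.45 and 17.4 CPM, and Arg1, an IL-4 target, reached 40.8 CPM in 254I M1 replicate 5. In 254I replicate 4 the M1 markers Nos2 and Cxcl9 stayed low, at 0.156 and 1.45 CPM in M0 and 0.557 and 0.989 CPM in M2. The M1 libraries of replicate number 2 had the lowest Ccl5 of each genotype (93.3, 124 and 165 CPM). In M1, 284R replicates 3, 4 and 5 stood apart in the genes described here, and results that rest on them are given with and without a library.

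**Figure D1:**
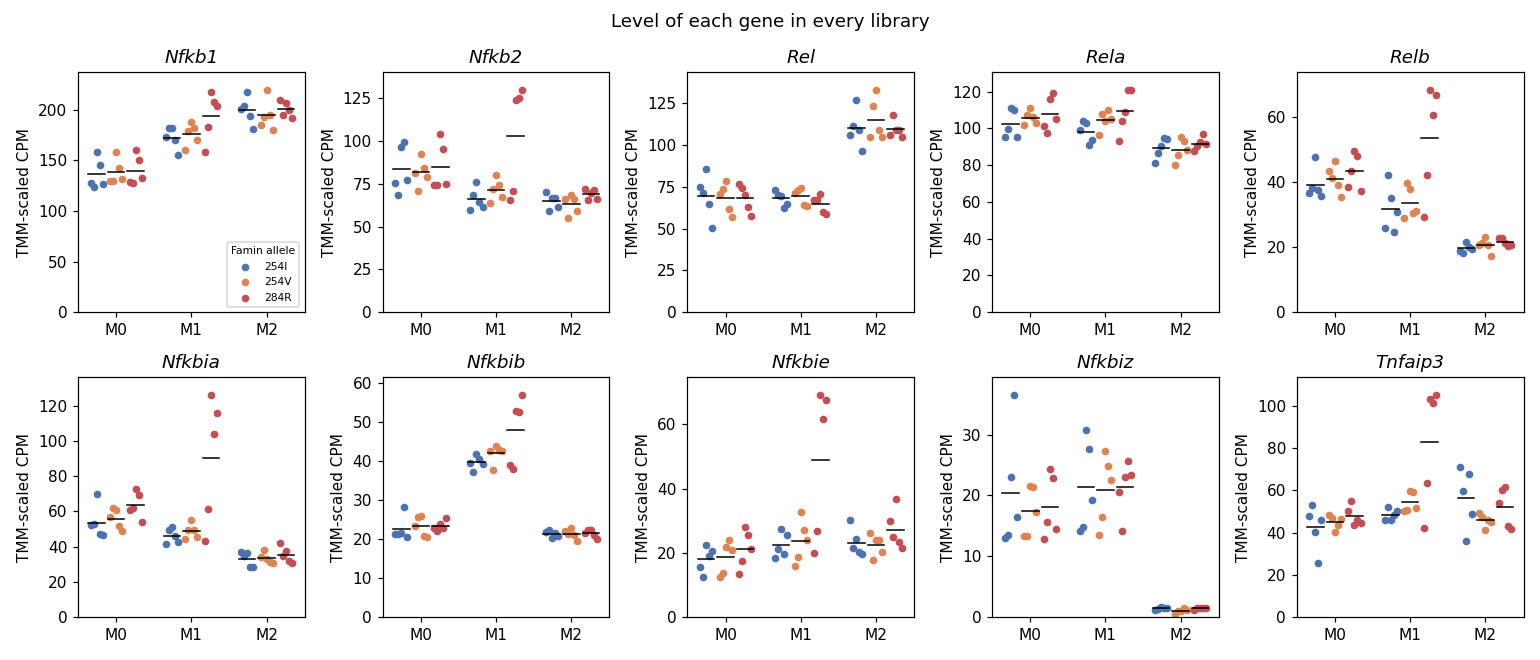
Level of each of the 10 genes in every library, in CPM scaled by TMM (y axis), for M0, M1 and M2 (x axis), with points for the 5 mice of each genotype in replicate order and a bar for the group mean. Nfkbiz lies at 0.566 to 1.64 CPM in all 15 M2 libraries, and 3 of the 5 284R M1 libraries lie above all others for Nfkb2, Relb, Nfkbia, Nfkbie and Tnfaip3.

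The subunits differed in level and in their response. Per kilobase of exon in protein-coding transcripts, Rela (encoding p65) and Nfkb1 (encoding p105, the precursor of p50) were the most abundant subunits in all 3 polarizations. In M0, Rela stood at 38.8 ± 2.68 RPKM and Nfkb1 at 33.5 ± 3.13 RPKM (SD, n = 15), followed by Nfkb2 at 19.7 ± 2.74 and Relb at 18.7 ± 2.19 RPKM, a pair whose ranges overlapped, and by Rel at 9.19 ± 1.25 RPKM. In M2, Nfkb1 made up 39.8% of the summed subunit level (38.2 to 41.7%), Rela 27.4% and Rel 12.3%, while Relb, at 15.5% in M0, was down to 7.70%. The order of Nfkb1 rests on the exons counted. With the exons of all annotated transcripts its length rises from 4124 to 12061 bases and its M2 share is 20.5%, below that of Rela. On those exons Nfkb1 also had a lower mean share than Nfkb2 in M0 (13.7% against 21.6%) and in M1 (17.6% against 20.1%). Among the inhibitors, Nfkbia (IkBα) had the highest level per length in each polarization and Nfkbiz (IkBζ) the lowest.

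Nfkb1 rose in both polarized states. Its level over the 15 libraries ran from 124 to 160.0 CPM in M0 (median 132), from 155 to 218 CPM in M1 (median 182) and from 180.0 to 220.0 CPM in M2 (median 195). M1 libraries overlapped the top of M0 only slightly and M2 libraries did not overlap M0 at all, and each of the 15 mice had a higher value in both states than in its own M0 cells. The log2 fold change was 0.39 ± 0.05 (SE) in M1 (adjusted p = 4.6e-10, quasi-likelihood test of edgeR) and 0.52 ± 0.05 in M2 (adjusted p = 2.1e-13). Gm43430 overlaps Nfkb1 on the same strand, so reads shared with it cannot be assigned to either.

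Rel, the c-Rel subunit of lymphoid and myeloid cells, rose in M2 and was not called in M1. It measured 50.4 to 85.4 CPM in M0 (median 70.7), 58.8 to 74.1 CPM in M1 (median 67.0) and 96.4 to 133 CPM in M2 (median 109). Every M2 library was above every M0 and M1 library, with a log2 fold change of 0.70 ± 0.06 against M0 (adjusted p = 2.3e-14) and of -0.73 ± 0.06 for M1 against M2 (adjusted p = 3.5e-15). Against M0, the value in M1 was -0.03 ± 0.06 (adjusted p = 0.65).

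Rela was lower in M2. It lay between 95 and 119 CPM in M0, between 91.0 and 121 CPM in M1 and between 80.3 and 96.7 CPM in M2. The M0 and M1 ranges coincided, and M2 overlapped only the lowest M0 libraries, yet every mouse had less Rela in M2 than in M0. The log2 fold change of M2 against M0 was -0.23 ± 0.04 (adjusted p = 5.7e-07).

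Relb and Nfkb2, the subunits of the non-canonical branch, fell in M2. Relb ran from 35.5 to 49.7 CPM in M0 and from 17.4 to 23.0 CPM in M2, with no overlap, a log2 fold change of -1.0 ± 0.09 (adjusted p = 1.6e-13). Nfkb2 ran from 68.2 to 104 CPM in M0 and from 55.3 to 72.2 CPM in M2, where the groups overlapped but all 15 mice had less in M2 (log2 fold change -0.34 ± 0.08, adjusted p = 0.00013). The M1 values of Relb and Nfkb2 are given by genotype below. AC114539.1 and Psd overlap Nfkb2 on the opposite strand, and whether strand was used in counting is not given.

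Of the inhibitors, Nfkbiz, a nuclear IkB protein that coactivates a subset of secondary response genes, had the largest difference. It measured 12.9 to 36.5 CPM in M0 (median 16.4), 13.6 to 30.8 CPM in M1 (median 22.6) and 0.566 to 1.64 CPM in M2 (median 1.48). No M2 library came near the other states. M2 was lower than M0 by a log2 fold change of -3.80 ± 0.17 (adjusted p = 2.8e-22), and M1 was 15.9-fold above M2 (log2 fold change 3.99 ± 0.17, adjusted p = 1.4e-23). M1 and M0 differed by 0.19 ± 0.14 (adjusted p = 0.20). With the replicate number as a block this difference was called (0.20 ± 0.07, adjusted p = 0.012). The highest M0 value, 36.5 CPM, belonged to 254I replicate 4, the M0 library with 563 CPM of Ccl5. Without that library, 254I M2 replicate 4 and 254I M1 replicate 5, M1 was higher than M0 by 0.31 ± 0.13 (edgeR adjusted p = 0.031). These libraries stood apart in Ccl5 or Arg1, and leaving them out was chosen after seeing the data.

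Nfkbib (IkBβ) rose in M1 in every mouse. Its levels were 20.6 to 28.2 CPM in M0, 37.3 to 57.0 CPM in M1 and 19.7 to 23.0 CPM in M2, so that M1 stood clear of both other states. The log2 fold change was 0.90 ± 0.05 against M0 (adjusted p = 9.3e-20) and 1.00 ± 0.05 against M2 (adjusted p = 1.6e-21). Ccer2 and Sirt2 overlap Nfkbib on the opposite strand, and whether strand was used in counting is not given in the sources used here.

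Nfkbia, an inhibitor that NF-kB itself reinduces, fell in M2 in all 15 mice, from 46.5 to 72.6 CPM in M0 down to 28.3 to 42.4 CPM, with no overlap (log2 fold change -0.76 ± 0.09, adjusted p = 2.3e-09). Nfkbie (IkBε) rose in M1, with 12.5 to 28.0 CPM in M0 and 16.1 to 69.2 CPM in M1 (log2 fold change 0.62 ± 0.15, adjusted p = 0.00020). The groups overlapped widely, but all 15 mice were higher in M1. Tnfaip3 (A20), a ubiquitin-editing enzyme that ends IKK signalling, ran from 25.5 to 55.0 CPM in M0 and from 42.1 to 105 CPM in M1, with 12 of 15 mice higher in M1 (log2 fold change 0.42 ± 0.10, adjusted p = 0.00034). Without the 284R libraries the M1 values were smaller, 0.34 ± 0.14 for Nfkbie and 0.24 ± 0.10 for Tnfaip3.

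In all, 4 of the 10 genes were called higher and 0 lower in M1 than in M0 (edgeR adjusted p under 0.05), where 37% of 12905 genes tested were called higher, 40.3% lower and 77.3% in either direction. In M2 against M0, 3 were higher (Nfkb1, Rel and Nfkbie) and 6 lower, against 36.8% of genes called higher, 39.6% lower and 76.4% in either direction. Nfkbie was higher in M2 in 12 of 15 mice, but numbers 4 and 5 of every genotype lay between -0.13 and 0.07 (log2(CPM + 1)). Nfkbib, among the 6 lower, was lower in 10 of 15 mice and was not called by limma-voom (adjusted p = 0.093). Between M1 and M2, 7 were higher in M1 and 2 lower (Rel and Nfkb1), against 39% of genes higher, 40.1% lower and 79.1% in either direction. The shares called higher in M1 and in M2 against M0 were near the background. Others were not, with 0 of 10 lower in M1 against 40.3%, and 4 of 10 in either direction against 77.3%. In M2, 6 of 10 were lower against 39.6%, and 7 of 10 were higher in M1 than in M2 against 39%. No difference from the background was tested, and nothing particular to the group is read from these shares. The median log2 fold change of the 10 was 0.11 in M1 and -0.17 in M2, beside -0.03 over all genes in both.

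**Figure D2:**
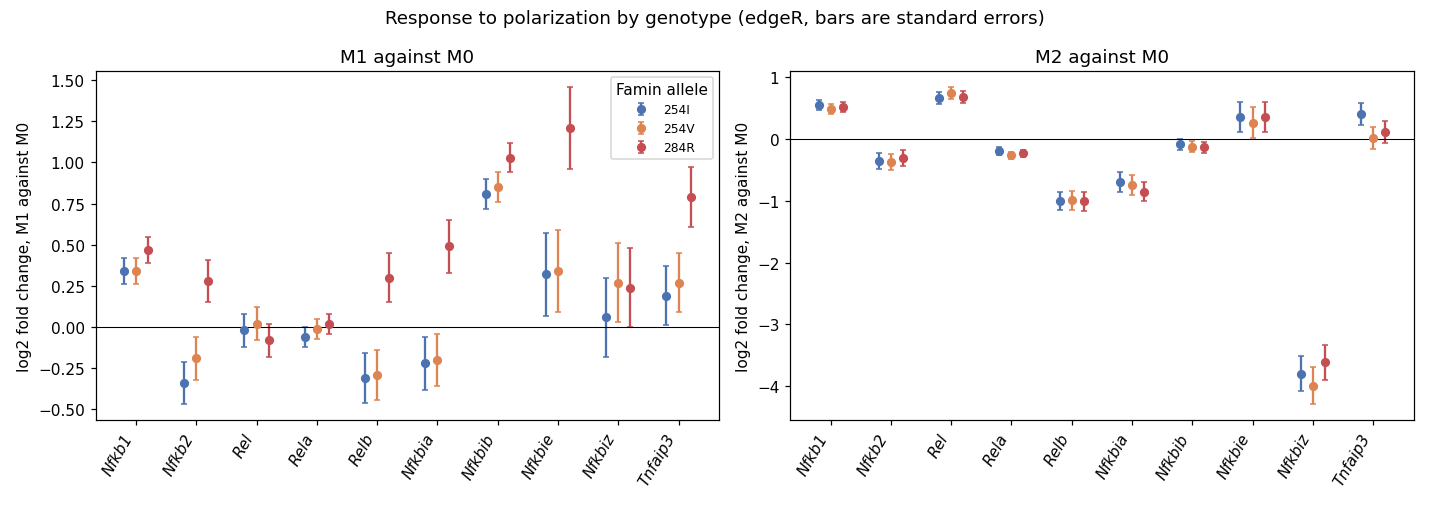
Log2 fold change against M0 (y axis) of each gene (x axis) in M1 and in M2, by genotype, from the edgeR fit of all 45 libraries, with bars of 1 standard error. The M2 values of the 3 genotypes lie close together, whereas Nfkb2, Relb and Nfkbia lie below 0 in M1 in 254I and 254V and above 0 in 284R.

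For Nfkb2, Relb and Nfkbia the M1 fold change was below 0 in 254I and 254V and above 0 in 284R, although the test of that difference, given below, called none. Rel and Rela had values of either sign within 0.08 of 0. In M1, Nfkbia measured 41.6, 49.3, 51.2, 46 and 42.7 CPM in 254I (replicates 1 to 5) and 44.4, 49.7, 54.9, 49.7 and 45.5 CPM in 254V. In 284R it measured 43.1, 61.3, 126, 104 and 116 CPM. Replicates 3, 4 and 5 were above all other M1 libraries, and replicate 1 lay within the range of the other genotypes. Against M0, the Nfkbia log2 fold change in M1 was -0.22 ± 0.16 in 254I (adjusted p = 0.25), -0.20 ± 0.16 in 254V (adjusted p = 0.30) and 0.49 ± 0.16 in 284R (adjusted p = 0.0074).

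With only the 30 libraries of 254I and 254V, a fit added after seeing the data, 3 genes were lower in M1 than in M0. These were Nfkb2 (-0.25 ± 0.07, adjusted p = 0.0012), Relb (-0.28 ± 0.08, adjusted p = 0.0025) and Nfkbia (-0.19 ± 0.07, adjusted p = 0.015), and Nfkbia was lower in 10 of the 10 mice. In that fit 36.4% of 12731 genes were called lower, 35.6% higher and 72.1% in either direction, so that 3 of 10 lay near the background. The 4 genes that rose over all genotypes were called higher there too, Nfkb1 by 0.35 ± 0.05 and Nfkbib by 0.84 ± 0.05, but Nfkbie only by 0.34 ± 0.14 (adjusted p = 0.027) and Tnfaip3 by 0.24 ± 0.10 (adjusted p = 0.036).

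Between genotypes within M1, 5 of the 10 genes were called higher in 284R, with 254I as the reference, and 0 lower, where 0.263% of genes tested were called (34 of 12905), 0.209% higher and 0.0542% lower. Nfkbia differed by 0.96 ± 0.16 (edgeR adjusted p = 0.0042), Nfkb2 by 0.64 ± 0.13 (adjusted p = 0.017), Relb by 0.75 ± 0.15 (adjusted p = 0.017), Nfkbie by 1.12 ± 0.25 (adjusted p = 0.032) and Tnfaip3 by 0.77 ± 0.18 (adjusted p = 0.034). The other 5 were not called, with Nfkbib at 0.27 ± 0.08 (adjusted p = 0.28), Rel at -0.07 ± 0.10 and Nfkbiz at 0.00 ± 0.24.

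The values behind these differences were split within the genotype. Nfkb2 measured 59.8, 68.6, 75.8, 64.1 and 61.5 CPM in 254I M1 libraries and 65.4, 70.8, 124, 125 and 130.0 CPM in 284R. Relb measured 25.9, 42.1, 35.1, 24.6 and 30.9 CPM against 29.4, 42.3, 68.5, 60.7 and 66.9 CPM. In both genes replicates 3, 4 and 5 of 284R stood above every 254I library and replicates 1 and 2 overlapped or adjoined them.

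Nfkbie measured 18.6, 21.2, 27.5, 19.8 and 25.5 CPM in 254I and 19.9, 27.0, 69.2, 61.7 and 67.6 CPM in 284R. Tnfaip3 measured 45.9, 52.3, 45.9, 48.2 and 50 CPM against 42.1, 63.4, 103, 101 and 105 CPM. The same 3 284R libraries were high. They were also the 3 highest of the 15 M1 libraries for Nfkb1 and Nfkbib, so for 7 of the 10 genes, but not for Rel, Rela or Nfkbiz, whose values there ran from 58.8 to 70.5, from 109 to 121 and from 23.1 to 25.7 CPM.

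Replicate numbers deviated together across genotypes, so each 284R library was also set against the 254I library of its number. For Nfkbia in M1 the differences were 0.05, 0.31, 1.28, 1.16 and 1.42 on the log2(CPM + 1) scale for numbers 1 to 5, and for Nfkbie 0.09, 0.34, 1.30, 1.59 and 1.37. For Rel they were -0.12, -0.06, 0.02, -0.06 and -0.14. Numbers 3 to 5 had the largest differences, and while numbers 1 and 2 lay between 0.05 and 0.34 for Nfkbia and Nfkbie. In M0 and M2 the Nfkbia differences ran from 0.05 to 0.55 and from 0.01 to 0.19.

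**Figure D3:**
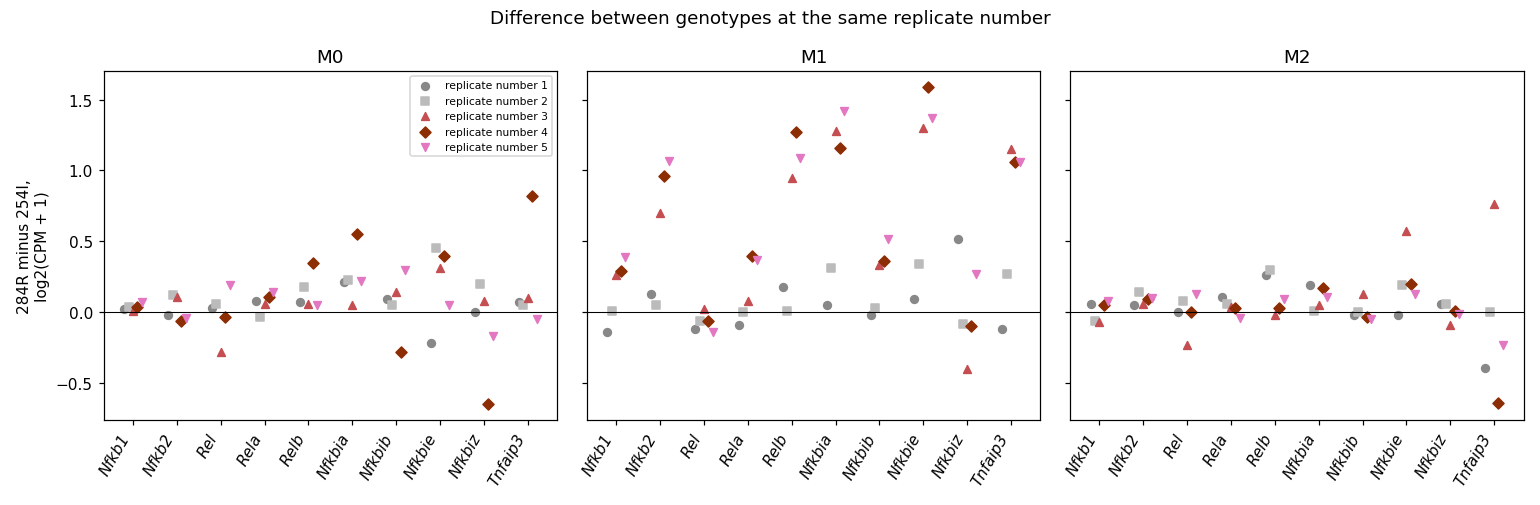
Value of each 284R library minus that of the 254I library of the same replicate number (y axis, log2(CPM + 1)) for each gene (x axis) in M0, M1 and M2, with 1 marker shape for each number. In M1, numbers 3, 4 and 5 lie between 0.70 and 1.59 for Nfkb2, Relb, Nfkbia, Nfkbie and Tnfaip3, and numbers 1 and 2 between -0.12 and 0.34.

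The calls rested on those libraries and on the spread shared by all 45. Without 284R replicate 3, 4 or 5, 0 of the 10 genes were called in each case, and a fit of the 10 compared libraries alone called 0 (Nfkbia 0.96 ± 0.26, adjusted p = 0.81), although 8 of the 10 had an unadjusted p under 0.05 in the full fit, as did 864 of the 12905 genes tested. Leaving out 254I replicates 1 to 5 in turn left 1, 2, 3, 1 and 2 calls, and leaving out a 254V mouse 3 or 4. By limma-voom, Nfkbia and Relb were called and Nfkb2 (adjusted p = 0.085), Tnfaip3 (adjusted p = 0.16) and Nfkbie (adjusted p = 0.17) were not. With the replicate number as a block over all 45 libraries, all 5 were called again, but with that block in the compared libraries alone 0 were (adjusted p = 0.27 for Nfkbia, 0.30 for Relb and 0.26 for Nfkbie). Lacc1, the gene that carries the variants, measured 396, 263, 218, 584 and 553 CPM in these 284R M1 libraries and 486 to 523 CPM in 254I, so that replicates 1 to 3 were low and replicates 4 and 5 were above 254I. In M2 the same replicates 4 and 5 measured 200 and 175 CPM, above the 159 to 169 CPM of 254I, and replicates 1 to 3 lay between 56.8 and 122 CPM. Slc9a9, a sodium-proton exchanger, was at 127 to 308 CPM in 254V M0 replicates 1 to 3. In 254V M0 replicates 4 and 5 it was at 12 and 10.9 CPM, as in 254I (11.2 to 21.7 CPM). In 284R M0 it was at 140 to 253 CPM in replicates 1 to 5, so 284R was not split in this gene. Libraries of 284R thus differed in Lacc1, and those of 254V in Slc9a9, by mouse. Groups follow the labels, and the counts do not show which variant a mouse carried. Nos2, the inducible nitric oxide synthase, measured 25.6, 8.60, 81.5, 149 and 131 CPM in the 284R M1 libraries, against 3.01 to 26 CPM in 254I. The part of this shared rise in the difference between genotypes was not tested.

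Against 254V in M1, 284R was higher for 1 gene, Nfkbia (0.88 ± 0.16, adjusted p = 0.013), where 0.0775% of genes were called, all of them higher. Relb (0.67 ± 0.15, adjusted p = 0.052) and Nfkbie (1.05 ± 0.25, adjusted p = 0.098) were not called. The replicate block called 4 genes in this comparison (Nfkb2, Relb, Nfkbia and Nfkbie), and leaving out any 254V mouse, or 284R replicate 3, 4 or 5, left 0. This comparison shares the 284R libraries with the one above.

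No gene of the 10 was called in M0 or M2 between any genotypes, or in M1 for 254V set against 254I, by edgeR, DESeq2 or limma-voom, and 0 had an unadjusted p under 0.05 in any of these comparisons. The percentage of all genes called was 0 in each but 284R against 254I in M2 (0.00775%). For the M1 response itself (M1 minus M0, 284R set against 254I), 0 of the 10 passed the adjusted threshold by edgeR, DESeq2 or limma-voom, and 0% of all genes did by edgeR. At an unadjusted p under 0.05, 5 genes did by edgeR, 5 by DESeq2 and 3 by limma-voom, with Nfkb2 at 0.62 ± 0.19 and Nfkbia at 0.71 ± 0.23 by edgeR, where 356 of the 12905 genes did. For the M2 responses and the M1 response of 254V, 0 were called by any of the 3 tools and 0 had an unadjusted p under 0.05. Over the summed counts of each mouse, 284R set against 254I gave 0 calls by edgeR, with 5 of the 10 genes and 325 of 13555 genes at an unadjusted p under 0.05, and 254V gave 0 and 0 of the 10.

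Covariation over the M1 libraries rested in part on the same libraries. With each genotype centred on its mean, the 45 pairs of genes had a median Pearson's r of 0.761 over the 15 M1 libraries. All pairs of genes tested had a median of -0.001. An r above 0.5 was found in 68.9% of the 45 pairs and in 11.2% of all pairs. With the replicate number also removed, the median over these 15 libraries was 0.837. As 284R formed separate clusters, r was also taken over the 10 254I and 254V libraries, where the median was 0.403 and 37.8% of pairs had an r above 0.5, beside 15.1% of all pairs of genes tested. With the replicate number also removed, the median was 0.264, and 35.6% of pairs had an r above 0.5 beside 20% of all pairs of genes. Over the 254I and 254V libraries, the medians centred on genotype were 0.386 in M0 and 0.151 in M2, and 0.188 and 0.148 with the number also removed. Centred on genotype, 33.3% of pairs in M0 had an r above 0.5, beside 16.2% of all pairs of genes. In M2 it was 13.3% beside 13.8%.

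Of the 45 pairs in the 10 M1 libraries, only Nfkb2 with Nfkbia passed the permutation test within genotypes (100000 resamples, two-sided). Its r was 0.973 (p = 0.0001, adjusted over 45 pairs p = 0.0045 by permutation) and its Spearman's rho 0.964 (adjusted p = 0.018 by permutation), and without the 2 libraries farthest from the median r was 0.957. With replicate number also removed, r was 0.576, so that part of it lay between numbers. Rel and Nfkbiz had r = -0.422 over the same 10 libraries centred on genotype, which was not called. The permutation test, in M1 and in M0 below, shuffled libraries freely within a genotype. Because same-numbered libraries deviated together, its p-values can be too small, and none was computed with the number removed.

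In M0, 6 of 45 pairs passed, among them Nfkbiz with Tnfaip3 in the opposite direction (r = -0.925, rho = -0.939, adjusted p = 0.016 and 0.021 by permutation, n = 10). The library with the most Nfkbiz in M0, 36.5 CPM, also had the least Tnfaip3, 25.5 CPM, and was 254I replicate 4. Without the 2 farthest libraries r was -0.860.

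**Figure D4:**
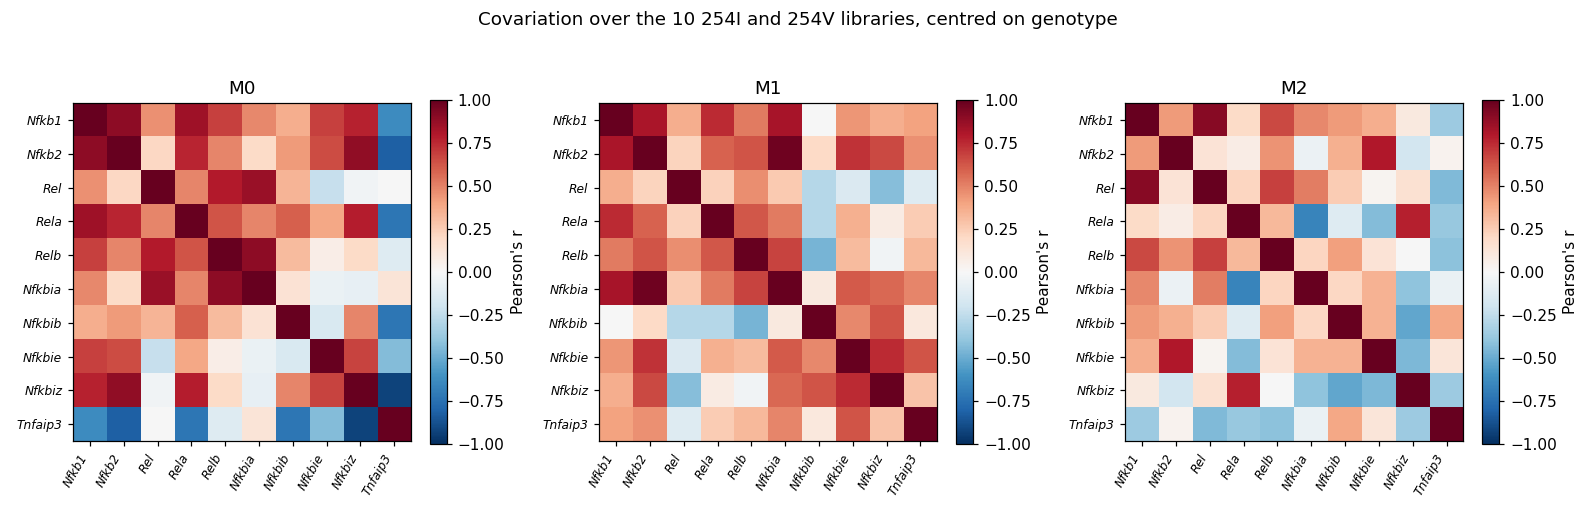
Pearson's r between each pair of the 10 genes over the 10 254I and 254V libraries of M0, M1 and M2, centred on genotype (colour scale from -1 to 1). In M1 the Nfkb2 and Nfkbia pair has r = 0.973, and in M0 Tnfaip3 has negative values with most other genes, down to -0.925 with Nfkbiz.

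The genes most like each member over the 15 M1 libraries, among 12895 others and as a description, were Cxcl10 for both Nfkb2 (r = 0.975) and Nfkbia (r = 0.974), Adam17 for Nfkbie (r = 0.978), M6pr for Tnfaip3 (r = 0.958) and Maff for Nfkbib (r = 0.957). The others were Mapkapk2 for Nfkb1 (r = 0.900), Bmf for Rel (r = 0.921), Kctd3 for Rela (r = 0.938), Zmiz2 for Relb (r = 0.924) and Srgap2 for Nfkbiz (r = 0.949). Over the 10 libraries without 284R, r was 0.589 for the M6pr pair, 0.71 for the Mapkapk2 pair and 0.797 for the Maff pair. Cxcl10 had 0.889 with Nfkb2 and 0.832 with Nfkbia. The partners of Rel, Rela, Relb, Nfkbie and Nfkbiz had 0.914 to 0.98 there.

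Other genes of the pathway are given from chosen lists, to be read against the shares of all genes called (37% higher and 40.3% lower in M1, 36.8% and 39.6% in M2), and no difference from those shares was tested. Of 11 genes of the IKK complex and its upstream kinases, 4 rose and 1 fell, with Chuk, the IKKα kinase, from a median of 60.1 CPM in M0 to 121 CPM in M1 (log2 fold change 1.04 ± 0.03, adjusted p = 2.4e-30) and Map3k8, a kinase bound by p105, at 0.36 ± 0.08. Ikbkg, the NEMO scaffold, fell from 128 to 87.5 CPM (log2 fold change -0.50 ± 0.05, adjusted p = 6.2e-12). In M2, 2 rose and 7 fell, with Ikbke from 192 to 92.9 CPM.

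Of 17 receptor and adaptor genes, 10 rose and 2 fell in M1. Myd88, the adaptor of Toll-like receptors, rose from a median of 97.3 to 232 CPM and Tnfrsf1a, a TNF receptor, from 199 to 436 CPM, while Tnfrsf1b fell from 890.0 to 385 CPM and Irak3, an inhibitor of this signalling, from 40.9 to 25.8 CPM. In M2, Traf5 had the largest change, from 12.6 to 55.4 CPM. Of the 8 tested genes of the non-canonical branch, 6 rose and 1 fell in M1, led by Cd40 (12.3 to 68.1 CPM) and Birc2 (29.9 to 54.1 CPM), with Tnfrsf11a falling from 137 to 108 CPM, and in M2 Map3k14, the kinase that starts this branch, fell from 41.3 to 23.6 CPM.

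Of 13 partners of A20 and ubiquitin editors, 6 rose and 4 fell in M1. Rnf31 and Sharpin, subunits of the linear ubiquitin ligase, rose from 37.6 to 95.6 and from 50.4 to 90.5 CPM, Otulin, which removes linear chains, fell from 62.3 to 39.9 CPM, and Tnip2 fell from 46.9 to 39.2 CPM. Tnip3 had the largest change in M2, from 118 to 218 CPM. Of 3 further IkB-related genes, Bcl3 and Nfkbil1 rose in M1 and Nfkbid fell, and Bcl3 fell in M2 from 22.6 to 10.8 CPM.

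Of 24 known NF-kB targets, 20 could be tested, and 12 rose and 6 fell in M1, against 5 that rose and 10 that fell in M2. Nos2 and Ptgs2 led the rise, Ptgs2 from a median of 0.611 to 63.9 CPM, while Ccl3 fell from 28.8 to 10.0 CPM and Cxcl1, near 1 CPM in M0, fell to 0.0396 CPM. Cxcl10 fell in M2 from 14.3 to 0.222 CPM. Of 4 genes known to need IkBζ, only Lcn2 was abundant enough to test, and it fell from 7.01 CPM in M0 to 5.76 CPM in M1 (adjusted p = 0.018) and to 2.13 CPM in M2 (adjusted p = 2.0e-07). Lcn2 spread widely in M0, from 1.93 to 22.1 CPM, which covered its M1 range of 3.44 to 9.18 CPM. A link between Lcn2 and Nfkbiz was not tested. In 284R against 254I in M1, 2 of the 20 targets and 1 of the 8 non-canonical genes were called: Sod2 (1.10 ± 0.19, adjusted p = 0.0052), Nos2 (2.20 ± 0.45, adjusted p = 0.017) and Cd40 (1.05 ± 0.20, adjusted p = 0.015), while 0 of the 11 IKK genes, 17 receptor and adaptor genes and 13 ubiquitin genes were. Over all genes, 0.263% were called in this comparison. In 284R M1 replicates 1 to 5, Sod2 measured 85.0, 92.0, 246, 234 and 260 CPM. Cd40 measured 59.6, 89.7, 150, 152 and 180 CPM, so replicates 3 to 5 were again the high ones. Without 284R replicate 3, 4 or 5, 1, 1 and 0 of all genes tested were called. These lists were chosen with results of the data known.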

How the data were processed

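RNA of bone marrow-derived macrophages was sequenced from stranded mRNA libraries as single reads. The authors deposited 2 tables for the 45 libraries, raw read counts per Ensembl gene and library-scaled CPM of a filtered gene set. The study's methods and the submitters' processing notes name HISAT2 as the aligner, on mm10, after Trim Galore, whereas the series' design text names Cutadapt and STAR. The counting tool is not given in the sources used here. Reads recovered from the deposited CPM equalled the counts in 100% of values (tolerance 0.05 reads).

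Samples were grouped by their titles, which give genotype, a number and polarization. Libraries of a genotype with the same number were taken as 1 mouse, which the titles do not state. Separate mice give the replicates. Counts were scaled by TMM and fitted over 9 groups with edgeR 4.0.16 (R 4.3.3; filterByExpr, robust glmQLFit, glmQLFTest) for 12905 genes, with Benjamini-Hochberg adjustment and a threshold of 0.05. For comparisons over mice, the 3 libraries of a mouse were summed (13555 genes). DESeq2 1.42.0 and limma 3.58.1 (voom) were alternatives. Fits were tested on simulated data. CPM in the text are TMM-scaled, and RPKM divide these by exon length (gencode vM21). Depth per library was 17239009 to 43740283 counts. Correlations used log2(CPM + 1).

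Polarizations of a genotype with the same number were taken as 1 mouse, and 38 of 45 such pairs of libraries had deviations correlated above 0.1. Between genotypes, same-numbered libraries did so in 15 of 15 pairs in M0 (r from 0.14 to 0.81), 15 of 15 in M1 and 13 of 15 in M2, although no source says what a number shares across genotypes. The number was therefore used as a block in an alternative fit.

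Named genes were the 10 genes, the 2 strongest rises and falls of each pathway list in M1 and its largest change in M2, and the gene most like each member in M1. Genes, lists and members were chosen with earlier results of these data known. Other genes named (Lacc1, Slc9a9, Ccl5, Arg1, Sod2 and markers) were chosen after their values were seen.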

Additional observations from a re-analysis of the deposited data

Results flagged for a closer look

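Among the 90 groups of 5 libraries (10 genes in 9 groups), 4 held a library whose gap to its nearest neighbour exceeded Dixon's 95% critical value, where chance gives about 1 in 20. In 254I M0, replicate 3 was high for Relb (47.7 CPM, the others 35.9 to 38.2) and for Nfkbia (69.9 CPM, the others 46.5 to 52.8). In the same group, replicate 4 was high for Nfkbib (28.2 CPM, the others 20.6 to 21.6), and this is the M0 library with 563 CPM of Ccl5. In 254V M1, replicate 2 was low for Nfkbib (37.7 CPM, the others 42.7 to 44). The 284R M1 libraries, which split 2 against 3, cannot be found by this test.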

How the results depend on the processing

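The number of the 10 genes called in M2 against M0 and in M1 against M2 stayed within 1.5 times the reported count in every alternative run. In M1 against M0 it did so in all but the fit without 284R, which called 7 in place of 4. In 284R against 254I in M1 the count, 5 as reported, was 2 by limma-voom and 3 with no low-count filter. It was 3 without the 3 libraries that stood apart in Ccl5 or Arg1. In a fit of only the libraries compared it was 0, and 0 in that fit with the replicate block. Leaving out 1 mouse at a time gave 0 to 6. Against 254V, with 1 as reported, it was 2 with DESeq2's size factors, 3 by the DESeq2 Wald test, 0 by limma-voom, 4 with the replicate block, 3 with that block in limma-voom, 2 on the reads recovered from CPM, and 0 in the fits of only the libraries compared, with or without the block. Leaving out 1 mouse gave 0 to 5. The cause was not tested. The block, or the pairing by mouse, changed the count of no other comparison by over 1.5 times. The median r in M1 of 0.761 was 0.403 over 254I and 254V alone and 0.626 to 0.789 with 1 mouse left out, and the Nfkb1 share of 39.8% was 20.5% with all annotated exons.

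A value rounding to 0.00 was given no direction. Signs turned for uncalled values near 0. In M1 against M0, Rel was 0.01 without 284R, Rela was -0.02 to 0.01 and Nfkbia -0.01 to 0.09 with 1 mouse left out, and Nfkbia was -0.01 in limma-voom with the replicate block and -0.19 without 284R, where it was called. Nfkbiz in 284R against 254V in M1 was -0.09 to 0.15 with 1 mouse left out. The alternatives without 284R, without 3 libraries, on recovered reads, with the block in limma-voom or in the compared libraries, and with all exons were chosen after seeing the data.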
